A study of Mus musculus with 24 samples.

Results

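The genes described here are 35 mouse genes whose products work beside Numb at the cell membrane: clathrin chains, subunits of the AP-2 adaptor, EH-domain and epsin scaffolds, dynamins, EHD and Rab proteins of endosomes, the Par polarity complex, and ubiquitin ligases. They were listed by name, with earlier results of these data known. All 35 were found among the 54752 gene IDs of the count tables, of which 33803 had a count in some library. All 35 also passed the filter on low counts in each fit. Expression came from RNA sequencing of mouse gastrocnemius, the bulky muscle of the calf, with 3 libraries in each of 8 groups, 24 in all.

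In clathrin-mediated endocytosis, AP-2 binds cargo and membrane lipid and recruits clathrin, scaffold proteins such as Eps15 and epsin help the coat grow, and dynamin cuts the vesicle free. Early, recycling and late endosomes then sort the cargo under the control of Rab and EHD proteins. Numb binds AP-2 and Eps15 family proteins as a cargo adaptor, is phosphorylated by atypical protein kinase C of the Par complex and by AP-2 associated kinase, and is itself a target of the ligases Lnx1, Lnx2 and Siah. In muscle fibres, Bin1 and Dnm2 are also known for shaping the transverse tubules.

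All 8 groups carried floxed alleles of Numb and of Numbl, its paralog. Transgene animals had HSA-MCM in addition, which is MerCreMer, a Cre fused to oestrogen receptor parts so that it acts once tamoxifen is given, under the human skeletal actin promoter of muscle fibres. Flox animals had Numb(f/f) and NumbL(f/f) without it. Their 6 male libraries are titled WT although the genotype field gives the floxed alleles. The groups are transgene females given tamoxifen or vehicle, flox females given tamoxifen or vehicle, transgene males given tamoxifen or vehicle, and flox males given tamoxifen or vehicle. The labels give no age, dose or timing, and do not say that each library is a separate animal, so p-values measure the spread between libraries. The labels of the 3 transgene male vehicle libraries conflict, with vehicle in the title and tamoxifen under treatment. The title was followed, and each comparison with them rests on that reading. Flrt1, a membrane protein gene, was picked as one that responds to tamoxifen, with earlier results of these data known. It stood at 168 to 285 CPM (counts scaled to library size) in transgene males given tamoxifen. The 3 transgene male libraries titled vehicle had 3.26 to 3.81 CPM. Flox males had 207 to 214 CPM after tamoxifen and 1.68 to 2.32 CPM after vehicle. Transgene females had 107 to 182 CPM after tamoxifen and 1.19 to 2.79 CPM after vehicle. Flox females had 8.49 to 53.7 CPM after tamoxifen and 1.01 to 2.21 CPM after vehicle.

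The counts were deposited in 3 tables, which hold the transgene females, the flox females and all males. Libraries held 21516819 to 43014516 counts. Genes of muscle fibres summed to 124887 to 240818 CPM over 8 markers. Slow fibre markers, 9 of 9 of them detected, spread widely in several groups. After tamoxifen their sum was 150 to 2832 CPM in transgene males, against 2692 to 3418 CPM in flox males. After vehicle it was 412 to 3472 CPM in transgene males, against 2457 to 3087 CPM in flox males. Transgene females had 3666 to 7880 CPM after tamoxifen and 1192 to 6383 CPM after vehicle. Flox females had 1863 to 5882 CPM after tamoxifen and 4787 to 5257 CPM after vehicle. The slow myosin gene Myh7 was at 755, 218 and 10.1 CPM in transgene males after tamoxifen. The tables differed in other genes too: the mitochondrial gene mt-Nd6 was at 51.6 to 86.8 CPM in the table of transgene females, 56.9 to 73.7 CPM in that of flox females and 1773 to 2854 CPM in that of males. The effect of a table cannot be told apart from that of genotype among females or from that of sex, so such levels are given side by side. In bulk muscle, fewer cells of a type and less RNA per cell cannot be told apart.

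The floxed genes are given first, since they bear on the labels. Numb was at 18.6, 19.0 and 18.6 CPM in transgene females after tamoxifen, against 23.2, 23.3 and 20.7 CPM after vehicle, and in flox females at 19.8, 19.3 and 17.3 CPM after tamoxifen, against 25.1, 20.9 and 22.3 CPM after vehicle. Transgene males had 19.8, 20.4 and 17.5 CPM after tamoxifen, against 18.1, 20.6 and 19.1 CPM after vehicle, and flox males 15.7, 16.5 and 16.1 CPM after tamoxifen, against 20.1, 19.1 and 17.2 CPM after vehicle. Groups did not overlap in females and in flox males, and overlapped in transgene males. Numbl was at 3.18 to 5.12 CPM in transgene animals and 3.39 to 6.50 CPM in flox animals after tamoxifen, against 2.67 to 3.79 CPM in transgene animals and 2.77 to 4.28 CPM in flox animals after vehicle. Over the 4 combinations of sex and genotype, Numb fell by 0.19 ± 0.04 on the log2 scale (SE; edgeR adjusted p = 0.00761) and Numbl rose by 0.42 ± 0.08 (adjusted p = 0.00261). In a fit of females alone Numb gave -0.26 (edgeR adjusted p = 0.0361) and in one of males alone -0.11 (adjusted p = 0.416), while Numbl gave 0.42 in each, without passing (adjusted p = 0.0692 in females and 0.0864 in males). The transgene response minus the flox response was 0.12 ± 0.09 for Numb and -0.08 ± 0.17 for Numbl (SE, log2 scale), and neither passed. Between male genotypes, Numbl was at 3.18 to 4.72 CPM in transgene males, against 5.15 to 6.50 CPM in flox males, after tamoxifen, and at 2.83 to 3.19 CPM in transgene males, against 3.49 to 4.28 CPM in flox males, after vehicle. Averaged over both treatments its log2 change was -0.48 ± 0.13 (SE; edgeR adjusted p = 0.0315). That call was lost with Myh7, a gene of slow fibres, as a covariate (-0.40, adjusted p = 0.157), without the 2 transgene male libraries lowest in Myh7 (-0.45, adjusted p = 0.102) and in 7 of 12 fits with a library left out (adjusted p up to 0.0841): transgene tamoxifen 2 or 3, transgene vehicle 2 or 3, flox tamoxifen 2, or flox vehicle 1 or 2. Counts over a whole gene do not separate floxed exons from others, so they do not show whether recombination took place.

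Bin1, an amphiphysin of muscle membranes, had the highest level per length, with a median of 182.5 CPM per kilobase of exon (range 159 to 232 over 24 libraries). Rab7, the GTPase of late endosomes, followed with a median of 83.7 CPM per kilobase, and the epsin Epn1 with 56.7. The clathrin light chain Cltb, the heavy chain Cltc and the light chain Clta had medians of 21.3, 18.4 and 18.4 CPM per kilobase. Their ranges overlapped over all libraries and in males, but not throughout in females. In flox females Cltc was at 12.1 to 14.3, below Clta at 17.4 to 20.8 and Cltb at 20.5 to 29.0. In transgene females Clta was at 13.4 to 18.0, below Cltb at 18.3 to 20.2 and Cltc at 18.7 to 20.5. At the low end were Lnx1, a ligase that marks Numb with ubiquitin, at 0.708 CPM per kilobase, and Prkcz, an atypical protein kinase C, at 0.213. Raw counts of Prkcz were 21 to 97 per library, those of Lnx1 36 to 205 and those of Bin1 16992 to 34694.

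**Figure D1:**
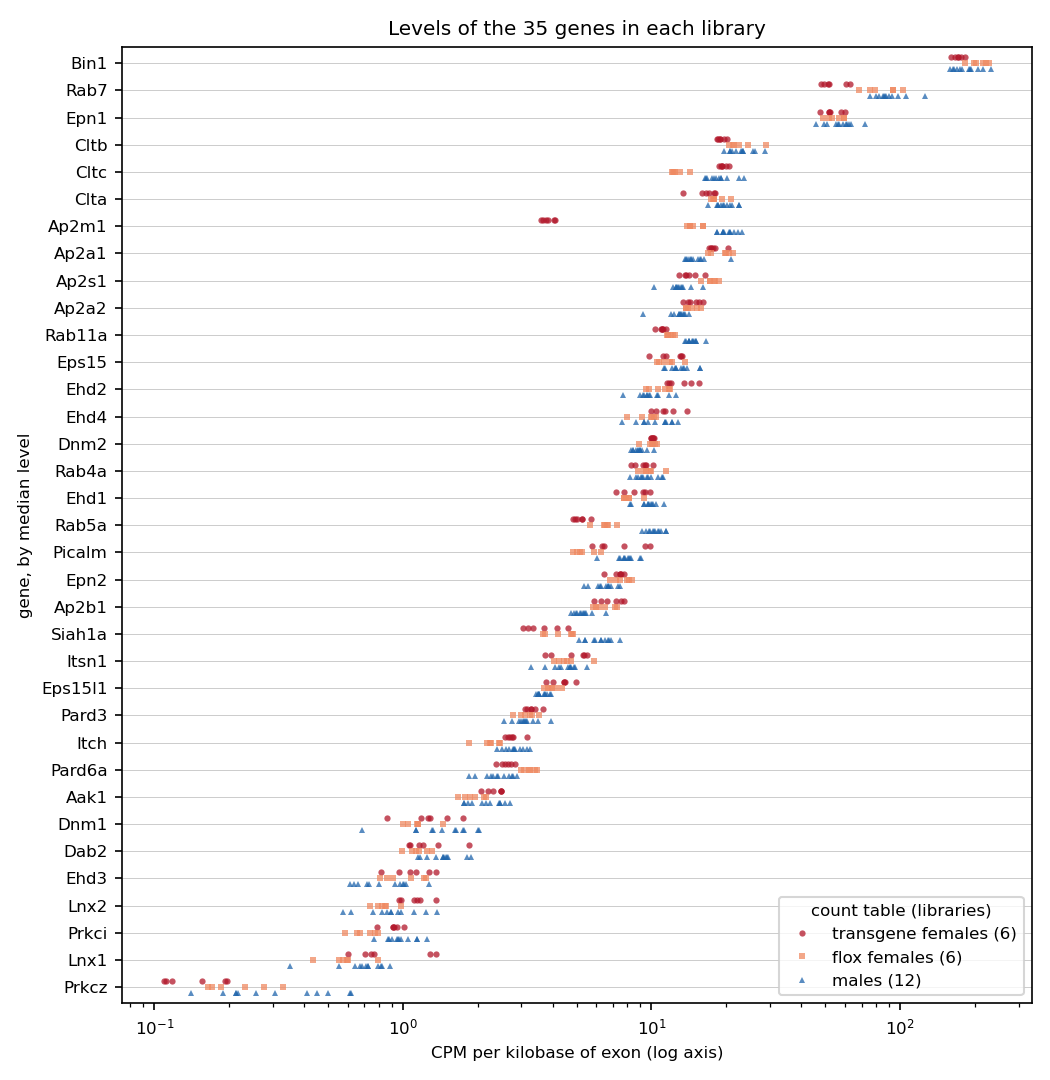
Level of each gene in each of 24 libraries, in CPM per kilobase of exon on a log axis, ordered by the median; colours and symbols mark the 3 count tables. Bin1 stands highest at 159 to 232, Prkcz lowest, and the 6 transgene female libraries of Ap2m1 stand apart at 3.58 to 4.08.

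Replicates lay close together. The SD of log2 CPM within groups had a median of 0.13 over the 35 genes, beside 0.16 over the 11234 genes at or above the level of the lowest of them. That lowest gene, Prkcz, was at 0.689 to 3.89 CPM, so the 11234 genes were not matched to the 35 by level. Rab11a, the GTPase of recycling endosomes, was the most even at 0.05, with Dnm2, the ubiquitous dynamin, at 0.07 and Ap2m1 at 0.07. Prkcz at 0.40, Lnx1 at 0.36, Dnm1 at 0.31 and Lnx2 at 0.31 were the most variable, and all of these are among the least counted genes of the set.

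The AP-2 subunits were present in every library, but Ap2m1 differed by table. Ap2m1 (ENSMUSG00000022841, chromosome 16, 20535478 to 20544909, plus strand, GRCm38, the build of all gene positions here) encodes the mu subunit that binds tyrosine motifs of cargo. It was at 16.6, 15.1 and 16.8 CPM in transgene females after tamoxifen and at 15.8, 14.8 and 15.5 CPM after vehicle. In flox females it was at 66.6, 60.8 and 58.9 CPM after tamoxifen and at 57.5, 59.0 and 66.7 CPM after vehicle. All 6 transgene female libraries were thus below every other library, whatever the treatment. Transgene males had 84.1 to 95.1 CPM and flox males 75.8 to 80.4 CPM, and these did not overlap either, though the means were far closer. The other subunits were nearer to each other in the female tables: the large subunit Ap2a1 had 73.5 to 87.3 CPM in transgene females and 72.9 to 91.2 CPM in flox females, and the small subunit Ap2s1 18.9 to 24.1 CPM in transgene females and 23.3 to 27.5 CPM in flox females.

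Between the transgene female and flox female tables, 8 of the 35 genes had libraries that did not overlap, where 14.8% of all genes did so. Only Ap2m1 of the 35 also differed by 2-fold or more, at 15.8 ± 0.824 CPM against 61.6 ± 4.06 CPM (SD, n = 6 each), where 5.33% of genes did. Cltc was at 165 CPM on average in transgene females and 108 CPM in flox females, and Rab7 at 141 CPM in transgene females and 224 CPM in flox females, without overlap. Rab5a, the GTPase of early endosomes, averaged 27.2 CPM in transgene females and 54.6 CPM in males, and it and Ap2m1 were the 2 of 35 that differed by 2-fold or more without overlap, beside 14.3% of genes. Between flox females and males, 6 of 35 did not overlap, beside 22.2%, and 0 reached 2-fold, beside 11.5%.

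Tamoxifen was first averaged over the 4 strata of sex and genotype, each difference being taken within a table. By the edgeR quasi-likelihood test with Benjamini-Hochberg adjustment over 16670 genes, 2 of the 35 passed an adjusted p of 0.05: Picalm rose and Epn1 fell. In all, 1472 genes, or 8.83%, passed, so the members passed no more often than genes in general. Of the 35, 8 had an unadjusted p under 0.05, beside 22.3% of genes. The median size of the log2 change was 0.05 over the 35 and 0.11 over all genes. Of the cell type markers, 1 of 7 endothelial genes, Kdr, and 1 of 7 myeloid genes, Cd68, passed lower in the same fit, with medians over those lists of -0.15 and -0.23, and their part in the results was not tested. The 95% interval of the log2 change lay within a 1.5-fold change in either direction for 35 of 35 genes.

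Picalm (ENSMUSG00000039361, chromosome 7, 90130213 to 90213465, plus strand) encodes CALM, which assembles clathrin and brings the SNARE proteins of endosomes into vesicles. In transgene females it was at 149, 122 and 155 CPM after tamoxifen, against 90.9, 99.2 and 101 CPM after vehicle. Flox females had 98.8, 92.7 and 82.5 CPM after tamoxifen, against 75.9, 79.1 and 81.5 CPM after vehicle. In both female genotypes, each tamoxifen library was above each vehicle library. Transgene males had 142, 128 and 130 CPM after tamoxifen and 130, 127 and 94.6 CPM after vehicle, and flox males 123, 117 and 122 CPM after tamoxifen and 122, 117 and 142 CPM after vehicle. The male groups overlapped.

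The mean log2 change of Picalm over the strata was 0.22 ± 0.05 (SE; edgeR adjusted p = 0.0133), a 1.16-fold rise that held in each of 24 fits with a library left out. In transgene females alone it was 0.56 ± 0.10 (edgeR adjusted p = 0.0403), or 1.47-fold, and there the call was lost in 5 of 6 fits with a library left out (adjusted p 0.0627 to 0.174), all but that without tamoxifen library 2 (0.0162). Flox females gave a log2 change of 0.21, transgene males 0.19 and flox males -0.08, none past the threshold. A fit of females alone gave 0.38 (edgeR adjusted p = 0.00857) and one of males alone 0.06 (adjusted p = 0.789). Myh7 in transgene females was at 1087 to 2607 CPM after tamoxifen and 328 to 1729 CPM after vehicle, and with Myh7 as a covariate the change in these animals was 0.49 (adjusted p = 0.134), while that over the strata was 0.22 (adjusted p = 0.00571).

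Epn1 (ENSMUSG00000035203, chromosome 7, 5080235 to 5098178, plus strand) encodes epsin 1, which bends membrane and binds ubiquitinated cargo. It was at 134, 147 and 145 CPM after tamoxifen in transgene females, against 146, 169 and 163 CPM after vehicle, with a slight overlap. Flox males had 139, 143 and 129 CPM after tamoxifen, against 159, 160 and 179 CPM after vehicle, without overlap. In flox females and transgene males the libraries spread from 137 to 204 CPM and tamoxifen and vehicle overlapped. The mean log2 change over the strata was -0.15 ± 0.05 (SE; edgeR adjusted p = 0.0484), and the call was lost in 18 of 24 fits with a library left out (adjusted p up to 0.12). It was also lost with RLE scaling (adjusted p = 0.0669), without a filter (0.0577), without the 2 transgene male libraries lowest in Myh7 (0.0860), in females alone (-0.11, adjusted p = 0.391) and in males alone (-0.19, adjusted p = 0.144).

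The promoters of both genes are shown because these are the only 2 of the 35 that passed over all strata. The windows run from 250 bases before to 50 bases after the RefSeq start site on GRCm38.p6, plus strand, 5′ to 3′, and capitals mark the palindrome CACGTG, the core of the E-box. Picalm at chr7:90129963-90130262 holds it at bases -191 and -1, where the -1 copy overlaps a GGTCA half-site on the other strand, and Epn1 at chr7:5079985-5080284 holds it at base -26.
Picalm: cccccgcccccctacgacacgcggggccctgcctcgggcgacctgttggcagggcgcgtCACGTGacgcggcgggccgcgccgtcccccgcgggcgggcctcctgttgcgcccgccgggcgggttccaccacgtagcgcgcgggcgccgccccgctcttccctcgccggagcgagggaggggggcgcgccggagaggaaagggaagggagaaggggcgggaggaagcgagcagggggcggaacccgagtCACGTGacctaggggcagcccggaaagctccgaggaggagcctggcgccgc
Epn1: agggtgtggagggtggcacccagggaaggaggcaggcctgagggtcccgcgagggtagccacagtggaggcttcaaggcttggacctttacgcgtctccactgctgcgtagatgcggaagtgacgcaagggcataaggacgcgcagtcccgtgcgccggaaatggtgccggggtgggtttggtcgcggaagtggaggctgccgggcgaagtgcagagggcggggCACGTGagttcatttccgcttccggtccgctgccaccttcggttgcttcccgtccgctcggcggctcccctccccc
CACGTG was picked after these sequences had been read. It is its own reverse complement, so it reads alike on both strands, and it stands in the promoters of 7 of 31 genes of the set with a RefSeq entry, beside 8.09% of 27025 symbols. The 7 are Lnx1, Ap2m1, Eps15l1, Epn1, Pard6a, Picalm and Rab5a, so they include the 2 genes whose sequences led to the pick. Picalm and Rab5a hold it 2 times, beside 0.594% of all promoters with 2 or more copies. GGTCA on either strand, the half-site of oestrogen receptors, stood in 9 of the 31, beside 43.6% of symbols, and GGTCA followed after 3 bases by TGACC in 0 of the 31, beside 0.07%. A match is a match of letters only.

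None of the clathrin chains passed. Log2 changes over the strata were 0.08 for Clta, 0.02 for Cltb and -0.06 for Cltc. The AP-2 subunits gave -0.14 for Ap2a1, -0.07 for Ap2a2, -0.13 for Ap2b1, 0.05 for Ap2m1 and -0.05 for Ap2s1, also with 0 of 5 past the threshold. Ap2b1 passed in 2 of 31 other settings and Ap2a1 in 1. In transgene females Ap2b1 was at 51.4 to 58.3 CPM after tamoxifen, against 62.8 to 68.0 CPM after vehicle. Ap2a2 there was at 75.9 to 80.8 CPM after tamoxifen, against 85.3 to 91.2 CPM after vehicle. Ap2b1 in flox males and Ap2a1 in transgene males were also lower after tamoxifen without overlap. Aak1, the kinase that phosphorylates the mu subunit and Numb, gave 0.01. The scaffold Itsn1 had the lowest value of the set at -0.19 ± 0.06 (SE; edgeR adjusted p = 0.0613). It passed in 6 of 31 other settings, which include no filter and Myh7 as a covariate. It was at 111, 92.0 and 87.3 CPM after tamoxifen in transgene females, against 125, 129 and 125 CPM after vehicle, and those libraries did not overlap. In these animals Itsn1 passed without a filter and with DESeq2, but not in the main fit.

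Among the ligases, Siah1a gave a mean log2 change of 0.19 ± 0.06 (SE; edgeR adjusted p = 0.0581) and Lnx1 0.23 ± 0.13 (adjusted p = 0.314). Siah1a passed over the strata in 6 of 31 other settings, which include DESeq2 and the fit of females alone. Siah1a was at 9.06, 7.26 and 8.21 CPM after tamoxifen in transgene females, against 5.97, 6.57 and 6.27 CPM after vehicle. Lnx1 in the same animals was at 4.90, 2.92 and 5.19 CPM after tamoxifen, against 2.31, 2.70 and 2.85 CPM after vehicle. Neither gene's libraries overlapped there, and the log2 change of Lnx1 was 0.74 ± 0.23 (SE; edgeR adjusted p = 0.152). Exons of Lnx1 overlap those of Fip1l1 on the other strand over 12.2% of their length, and without a stated strand setting reads of the 2 genes cannot be told apart. Itch gave -0.12, and the Par genes Pard3, Pard6a, Prkci and Prkcz lay between -0.05 and 0.02.

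The other scaffolds and the endosomal genes did not pass over the strata. The EH-domain proteins Eps15 and Eps15l1, which gather coat proteins, gave log2 changes of -0.04 and 0.02, Epn2 gave -0.01, and Dab2, a cargo adaptor, gave -0.09. Bin1 gave -0.02. The EHD ATPases, which tubulate membranes, gave 0.00 for Ehd1, -0.06 for Ehd2, 0.04 for Ehd3 and -0.02 for Ehd4. Ehd3 in flox females was at 5.98, 5.65 and 5.28 CPM after tamoxifen, against 7.98, 8.15 and 7.04 CPM after vehicle, without overlap. That log2 change was -0.45 ± 0.13 (SE; edgeR adjusted p = 0.361), while in transgene males it was 0.37 ± 0.23. The Rab genes gave -0.01 for Rab5a, 0.00 for Rab4a, -0.06 for Rab7 and -0.01 for Rab11a, and the ligase gene Lnx2 gave -0.06. Ehd1 in transgene females was at 34.9, 36.5 and 34.2 CPM after tamoxifen, against 26.7, 28.7 and 31.5 CPM after vehicle. Those did not overlap, at a log2 change of 0.30 ± 0.08 (SE; edgeR adjusted p = 0.123).

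**Figure D2:**
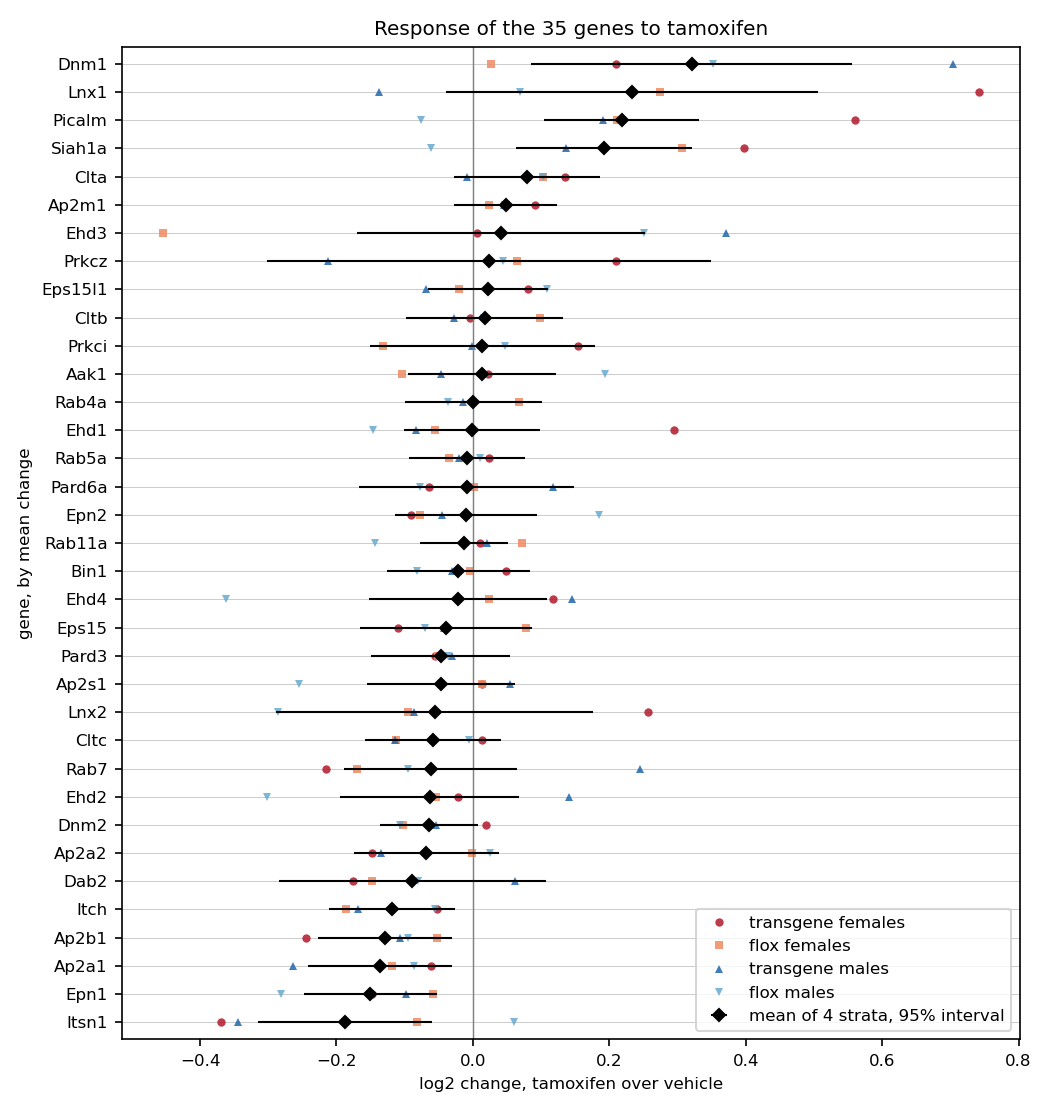
Log2 change after tamoxifen over vehicle for the 35 genes; diamonds with 95% intervals are the mean over 4 strata and coloured symbols the strata of 3 against 3 libraries. Picalm at 0.22 and Epn1 at -0.15 passed the threshold, and Dnm1 at 0.32 and Itsn1 at -0.19 mark the ends of the set.

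Within strata, calls were rare. In transgene females 1 of 35 passed, Picalm, beside 1.32% of 14211 genes, and 8 of 35 had groups that did not overlap, beside 22.8%. Flox females gave 0 of 35, beside 0.131%, with 5 without overlap, beside 14.2%. Transgene males gave 0 of 35, beside 0.889%, with 3 without overlap, beside 13.6%. Flox males gave 0 of 35, beside 2.89%, with 4 without overlap, beside 27.9%. For those counts of 0 in edgeR, flox females had 3 genes at an unadjusted p under 0.05, transgene males 4 and flox males 4, and DESeq2 also called 0 in each. The 95% interval of the change lay within 2-fold either way for 34 or 35 of the 35 genes in each of the 4 strata.

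The response with the recombinase minus the response without it did not pass for any of the 35, beside 0.012% of genes. The smallest adjusted p was 0.493, 3 genes had an unadjusted p under 0.05, and DESeq2 also called 0. That difference was 0.30 ± 0.11 (SE; 95% interval 0.07 to 0.52) for Picalm and -0.36 ± 0.12 (-0.61 to -0.10) for Itsn1, on the log2 scale. A female minus male difference of the response, added after the data were seen, gave 0 of 35, beside 0.708%. There 5 genes had an unadjusted p under 0.05, DESeq2 called 0, and Picalm had 0.32 ± 0.11 (SE; edgeR adjusted p = 0.207). Between transgene and flox females, which share no library, 21 of 35 genes had log2 changes of the same sign (60.0%), as did 60.8% of all genes. In males it was 15 of 35 (42.9%), as against 58.1% of all genes.

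Paralogs of the set were compared as ratios of levels per length, with an exact two-sided permutation test of tamoxifen against vehicle within the 4 strata and adjustment over 9 pairs. The ratio of Dnm2 over Dnm1, the neuronal dynamin, was lower after tamoxifen in 4 of 4 strata. The mean log2 ratio changed by -0.40 (exact permutation p = 0.00289, adjusted p = 0.0260, over 160000 arrangements). In transgene males the ratio was 4.49 to 6.53 after tamoxifen and 7.01 to 13.2 after vehicle, and in flox males 4.45 to 5.22 after tamoxifen and 6.25 to 7.43 after vehicle, without overlap in either. In females the ranges overlapped, at 5.69 to 8.63 after tamoxifen and 6.77 to 11.6 after vehicle in transgene animals and at 6.98 to 9.38 after tamoxifen and 8.91 to 9.15 after vehicle in flox animals. Dnm1 itself was at 10.5, 6.94 and 9.24 CPM in transgene males after tamoxifen, against 6.88, 5.91 and 3.60 CPM after vehicle. Its log2 change over the strata was 0.32 ± 0.11 (SE; edgeR adjusted p = 0.0849), beside -0.06 ± 0.03 for Dnm2, of whose exon length 3.88% overlaps Tmed1 on the other strand. The call of the ratio was lost in 5 of 24 tests with a library left out, which were transgene female tamoxifen 2 and vehicle 3 and transgene male tamoxifen 1, tamoxifen 3 and vehicle 3, at an adjusted p of up to 0.0865.

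The other 8 pairs did not pass. Epn1 over Epn2 gave a log2 difference of -0.14 (exact permutation p = 0.0281, adjusted p = 0.126), and the 7 others had an adjusted p of 0.534 or more. Median ratios over the 24 libraries are of levels per length, so they depend on the annotated exon lengths. Epn1 was 7.68 times Epn2, Dnm2 7.22 times Dnm1, Ehd2 12.2 times Ehd3, Prkci 4.05 times Prkcz and Eps15 3.21 times Eps15l1. Ap2a1 was 1.24 times Ap2a2, Clta 0.873 times Cltb, Ehd1 0.849 times Ehd4 and Lnx1 0.745 times Lnx2. Without a length, Ap2a1 averaged 77.3 CPM in transgene females, 82.9 CPM in flox females and 65.6 CPM in males. Ap2a2 averaged 83.4, 82.3 and 72.4 CPM in the same order. Exons of Ap2a1 overlap those of Fuz on the other strand over 16.7% of their length. Exons of Clta span 1800 bases and those of Cltb 4868 bases.

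**Figure D3:**
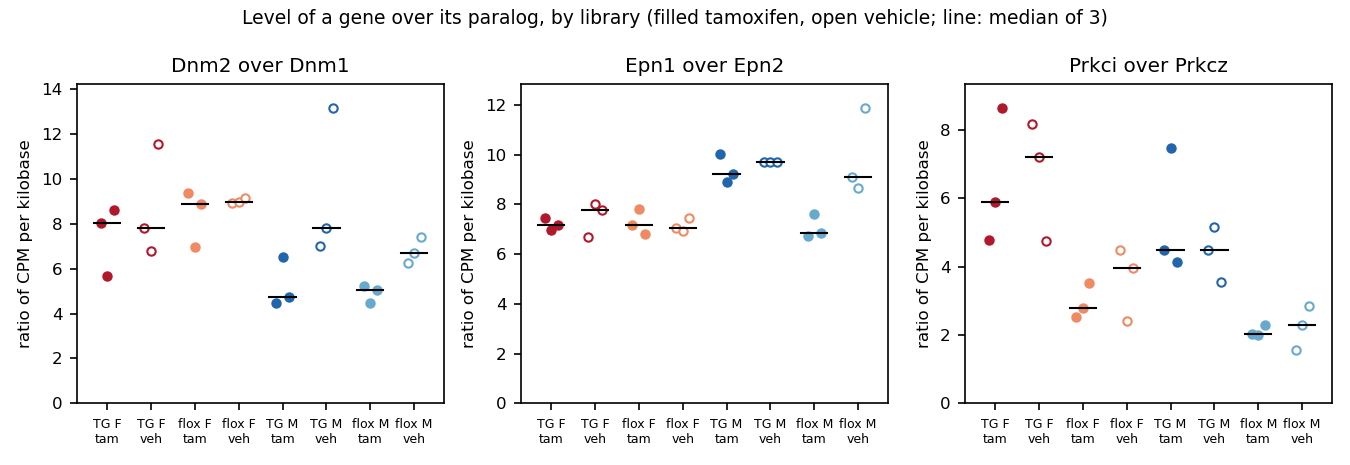
Ratio of levels per kilobase of exon for 3 pairs in each library, by group (filled, tamoxifen; open, vehicle; line, median of 3). The pairs are Dnm2 over Dnm1, Epn1 over Epn2 and Prkci over Prkcz, and the Dnm2 over Dnm1 ratio lies at 4.45 to 6.53 in the 6 male tamoxifen libraries and at 6.25 to 13.2 in the 6 male vehicle libraries.

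Transgene and flox males lie in 1 table, so genotypes can be compared within it. The numbers in their titles fall in separate ranges by genotype. Genotype thus cannot be told apart from any other difference between those ranges, which the labels do not describe. After tamoxifen 3 of 35 genes passed, beside 5.23% of 15628 genes: Ehd4 and Rab7 were higher and Prkcz lower in transgene males. The groups did not overlap for 13 of 35, beside 27.7% of genes. After vehicle 0 passed in edgeR, beside 0.947%, and 10 did not overlap, beside 22.7%, while 8 had an unadjusted p under 0.05 and DESeq2 called 2, Aak1 and Prkcz. Averaged over both treatments, a comparison added after the data were seen, Prkcz was lower and Aak1 and Rab4a higher, 3 of 35, beside 10.5% of genes. The genotype difference had the same sign after tamoxifen and after vehicle in 22 of 35 genes (62.9%), and in 64.7% of all genes.

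Prkcz (ENSMUSG00000029053, chromosome 4, 155260129 to 155361361, minus strand) encodes protein kinase C zeta, a kinase of the Par complex that phosphorylates Numb. It was at 1.35, 0.889 and 1.34 CPM in transgene males after tamoxifen, against 3.89, 2.86 and 2.59 CPM in flox males. After vehicle it was at 1.61, 1.20 and 1.37 CPM in transgene males, against 3.88, 3.16 and 1.93 CPM in flox males. All 6 transgene libraries were below all 6 flox libraries. The log2 change was -1.37 ± 0.29 after tamoxifen (SE; edgeR adjusted p = 0.0164), -1.12 ± 0.28 after vehicle (adjusted p = 0.0829) and -1.24 ± 0.20 over both (adjusted p = 0.00265), the last a level of 0.422 times that of flox males. The value over both treatments passed in each of 12 fits with a library left out and with Myh7 as a covariate (-1.29, adjusted p = 0.0136). After tamoxifen alone the covariate gave -1.43 (adjusted p = 0.0511), and leaving out transgene tamoxifen library 2 gave -1.20 (adjusted p = 0.0585) and flox tamoxifen library 1 -1.18 (adjusted p = 0.0678). In females, where genotype and table cannot be told apart, it was at 0.689 to 1.24 CPM in transgene and 1.04 to 2.07 CPM in flox animals. Prkci, the other atypical kinase, had a log2 change over both treatments of -0.08 (95% interval -0.36 to 0.20).

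Ehd4 (ENSMUSG00000027293, chromosome 2, 120089175 to 120154606, minus strand), an ATPase of endosome entry, was at 45.3, 45.5 and 51.3 CPM in transgene males after tamoxifen, against 34.7, 37.4 and 30.6 CPM in flox males. After vehicle it was at 41.5, 48.5 and 38.7 CPM in transgene males, against 48.4, 37.4 and 45.8 CPM in flox males, which overlap. The log2 change was 0.47 ± 0.12 after tamoxifen (SE; edgeR adjusted p = 0.0414) and -0.04 ± 0.12 after vehicle (adjusted p = 0.892). Flox males alone gave -0.36 ± 0.12 for tamoxifen over vehicle (adjusted p = 0.134).

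Rab7 (ENSMUSG00000079477, chromosome 6, 87999106 to 88045270, minus strand), of whose exon length 7.82% overlaps a gene on the other strand, was at 275, 242 and 329 CPM in transgene males after tamoxifen, against 223, 197 and 210 CPM in flox males. After vehicle it was at 224, 257 and 235 CPM in transgene males, against 229, 214 and 227 CPM in flox males. The log2 change was 0.42 ± 0.11 after tamoxifen (SE; edgeR adjusted p = 0.0414) and 0.09 ± 0.11 after vehicle (adjusted p = 0.733). The highest Rab7 library, transgene tamoxifen 3, is also the one with the lowest Myh7, and without it the change was 0.30 (adjusted p = 0.144). With Myh7 in the fit as a covariate the changes were 0.47 (edgeR adjusted p = 0.107) for Ehd4 and 0.33 (adjusted p = 0.166) for Rab7. Without the 2 transgene male libraries lowest in Myh7 they were 0.41 (adjusted p = 0.105) for Ehd4 and 0.30 (adjusted p = 0.127) for Rab7. Leaving out a library ended the call of Ehd4 in 6 of 12 fits (log2 change 0.39 to 0.54, adjusted p up to 0.154): transgene tamoxifen 2 or 3, transgene vehicle 1, or any flox tamoxifen library. It ended that of Rab7 in 7 of 12 (0.30 to 0.47, adjusted p up to 0.15): transgene tamoxifen 3, transgene vehicle 1, flox vehicle 1 or 2, or any flox tamoxifen library.

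Aak1 (ENSMUSG00000057230, chromosome 6, 86849517 to 87003223, plus strand) was at 55.2, 52.3 and 53.0 CPM in transgene males after vehicle, against 37.6, 37.8 and 40.8 CPM in flox males. After tamoxifen it was at 44.6, 52.5 and 57.7 CPM in transgene males, against 46.1, 39.3 and 48.0 CPM in flox males. The groups were apart after vehicle and overlapped after tamoxifen. The log2 change was 0.45 ± 0.10 after vehicle (SE; edgeR adjusted p = 0.0557) and 0.33 ± 0.07 over both treatments (adjusted p = 0.0129), while the value over both gave 0.25 (adjusted p = 0.0906) with Myh7 as a covariate. Marker sums of other cells stood apart after vehicle: 5 adipocyte markers summed to 5.88 to 15.8 CPM in transgene males, against 33.9 to 64.6 CPM in flox males, and 3 blood markers to 285 to 352 CPM in transgene males, against 517 to 949 CPM in flox males, with 0 of either list past the threshold. Lep was at 0 in a transgene library. Sums of 8 muscle fibre markers stood apart after vehicle too, at 162758 to 209341 CPM in transgene males, against 139088 to 156453 CPM in flox males. None of them passed the threshold. After tamoxifen the muscle fibre sums overlapped, at 124887 to 214169 CPM in transgene males, against 146926 to 169536 CPM in flox males. After tamoxifen the adipocyte sums were 14.8 to 29.2 CPM in transgene males, against 16.6 to 121 CPM in flox males. The blood sums were 261 to 554 CPM in transgene males, against 416 to 660 CPM in flox males. Sums of 6 fibroblast markers stood apart then, at 487 to 522 CPM in transgene males, against 308 to 408 CPM in flox males. Those of 5 smooth muscle and pericyte markers did so too, at 305 to 325 CPM against 351 to 406 CPM. Neither of these lists had a gene past the threshold after tamoxifen. Over both treatments 1 of 3 blood markers, Hba-a1, passed lower, while 1 of 6 fibroblast markers, Col3a1, and 1 of 8 muscle fibre markers, Pvalb, passed higher in transgene males. Their part in the result was not tested.

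Rab4a (ENSMUSG00000019478, chromosome 8, 123805985 to 123835287, plus strand), the GTPase of fast recycling, was at 17.5, 19.6 and 17.1 CPM in transgene males after tamoxifen, against 14.3, 15.5 and 16.3 CPM in flox males. After vehicle it was at 18.6, 16.9 and 19.3 CPM in transgene males, against 16.1, 15.2 and 15.9 CPM in flox males. All 6 transgene libraries were above all 6 flox libraries, by a small margin. The log2 change over both treatments was 0.22 ± 0.06 (SE; edgeR adjusted p = 0.0497), and 10 of 12 fits with a library left out did not call it (adjusted p up to 0.115), the exceptions being transgene tamoxifen 1 and vehicle 2. It was also lost with Myh7 as a covariate (0.21, adjusted p = 0.146), without the 2 transgene male libraries lowest in Myh7 (0.22, adjusted p = 0.0901) and without a filter (0.22, adjusted p = 0.136). Bin1 gave 0.25 ± 0.08 and Rab7 0.25 ± 0.08 over both treatments, at an adjusted p of 0.0582 and 0.0525.

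**Figure D4:**
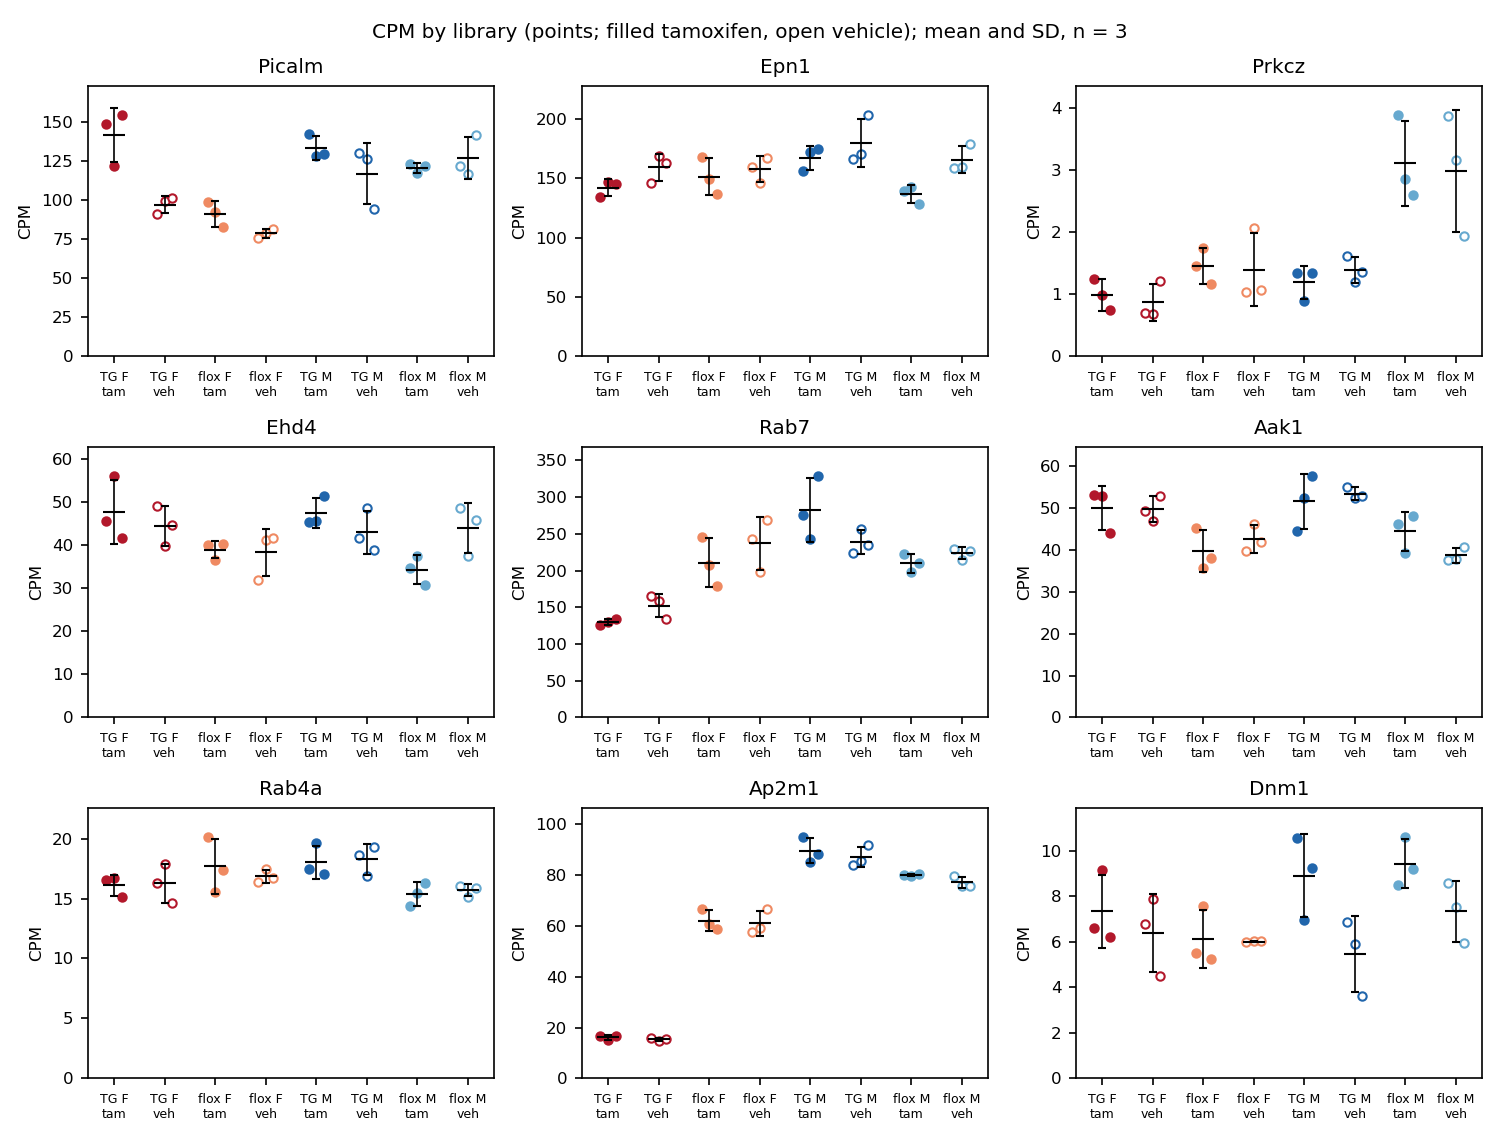
CPM in each library of 9 genes by group, with mean and SD (n = 3); filled points are tamoxifen and open points vehicle. All 6 transgene male libraries of Prkcz lie between 0.889 and 1.61 CPM, against 1.93 to 3.89 CPM in flox males, and Ap2m1 lies at 14.8 to 16.8 CPM in transgene females.

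**Figure D5:**
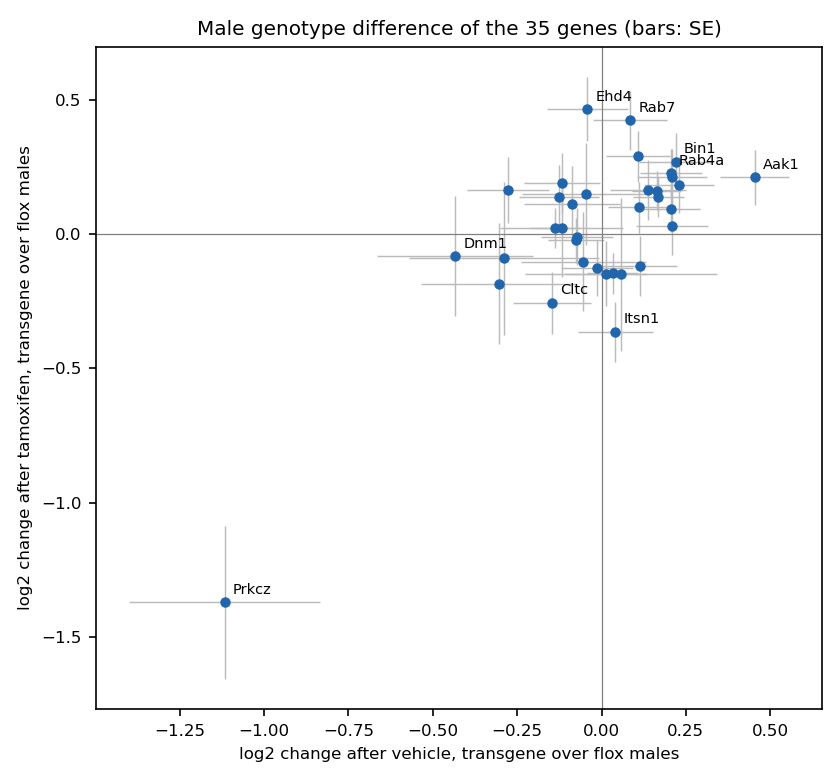
Log2 change of transgene over flox males after tamoxifen (vertical axis) against that after vehicle (horizontal axis) for the 35 genes, with SE. Prkcz stands apart at -1.37 and -1.12, Aak1 is highest after vehicle at 0.45, and Ehd4 and Rab7 are highest after tamoxifen.

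A list of 78 other genes of endocytosis and Numb regulation was set beside these, of which 68 to 72 were tested. Over the strata 9 of 72 passed, beside 8.83% of all genes, 5 higher and 4 lower, and they include Numb and Numbl. Synj2, a phosphatase that strips coats from vesicles, rose by 0.55 ± 0.11 on the log2 scale (SE; edgeR adjusted p = 0.00268), while Tiam1, an exchange factor of Rac, fell by 0.77 ± 0.19 (adjusted p = 0.0132). In transgene females 3 of 69 passed, beside 1.32%, and Synj2 there rose by 1.09 ± 0.16 and its paralog Synj1 by 0.70 ± 0.13. In transgene males Hip1r, a clathrin and actin linker, fell by 0.76 ± 0.16 and the kinase Mark2 rose by 0.59 ± 0.12, 2 of 68, beside 0.889%. In flox males 3 of 68 passed, beside 2.89%, of which the dynamin gene Dnm3 rose by 1.02 ± 0.19, and in flox females 0 of 71, beside 0.131%. Between male genotypes after tamoxifen 6 of 68 passed, beside 5.23%, 3 higher and 3 lower, with Dnm3 at -0.94 ± 0.19 and Synj2 at -0.79 ± 0.17 lowest. After vehicle 1 of 68 passed, beside 0.947%, the insulin receptor gene Insr at 0.47 ± 0.10, which after tamoxifen also passed, at 0.44 ± 0.10. Over both treatments 10 of 68 passed, beside 10.5%, 6 higher and 4 lower. Synj2 at -0.62 ± 0.12 and Numbl at -0.48 ± 0.13 were the lowest of these and Insr at 0.46 ± 0.07 the highest. The log2 changes named here carry their SE and passed the edgeR test at an adjusted p under 0.05. With a library left out, the calls within a stratum were lost in 5 of 6 fits for Synj1, 4 of 6 for Synj2, 10 of 12 for Hip1r, 9 of 12 for Mark2 and 2 of 12 for Dnm3. Those between male genotypes after tamoxifen were lost in 4 of 12 for Synj2, 1 of 12 for Dnm3 and 4 of 12 for Insr. After vehicle that of Insr was lost in 8 of 12. Over both treatments those of Synj2 and Insr held in each of 12 fits and that of Numbl was lost in 7. Over the strata those of Synj2 and Tiam1 held in each of 24 fits, though Synj2 did not pass in males alone (0.23, adjusted p = 0.341) nor Tiam1 in females alone (-0.54, adjusted p = 0.349).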

How the data were processed

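The authors deposited raw counts of reads for each Ensembl ID, without normalization, as 3 tables. The submitters' processing notes name STAR, limma and featureCounts as tools and GRCm38 and mm10 as builds, without saying what each did. Kit, strand setting and annotation release were not given in the labels read, so counts of overlapping genes are uncertain. Symbols, exon lengths and coordinates come from GENCODE on GRCm38, and 29 of 54752 IDs had no symbol. Libraries of a group differed by more than sampling noise and none was treated as a duplicate.

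The deposited counts were tested with edgeR 4.0.16 under R 4.3.3 (TMM scaling, filterByExpr with a minimum count of 10 and total of 15, robust quasi-likelihood F-test, Benjamini-Hochberg threshold 0.05) over all genes, and every adjusted p of a gene is from this test unless DESeq2 1.42.0 is named. Female strata were fitted on their own 6 libraries, males on 12 and averages over strata on 24. The SE is the log2 change over the square root of F. CPM use TMM factors over 24 libraries. The procedure was tested on simulated data. Exact two-sided permutations within strata served the paralog ratios. Alternatives were RLE scaling, no filter, DESeq2, Myh7 as a covariate, other sets of libraries and leaving out each library. For paralog ratios CPM without a length were also run, but exon length cancels from the tamoxifen difference, so that setting cannot change it. The 35 genes and the other lists were chosen with earlier results of these data known. Described in more detail, though not always in every library, are genes past the threshold in a fit and those with a log2 change of 0.5 or more and no overlap. Itsn1, Siah1a, Ehd1, Ehd3, Ap2m1, Ap2a1, Ap2a2, Ap2b1, Rab5a and Cltc were added after their values were seen. The genotype average over both treatments, the sex difference and the motif CACGTG were also added then.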

Additional observations from a re-analysis of the deposited data

How the results depend on the processing

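For the 12 calls in the 35 genes, Numb and Numbl, 179 values under other settings stayed past the threshold and 77 lost the call. For the 31 calls in the other genes of the second list, 461 stayed past it and 155 lost the call. None of these values changed sign. Counts of all genes called moved most. In transgene females 187 genes became 941 without a filter, 93 with Myh7 as a covariate, 679 with DESeq2 and 37 to 215 with a library left out. In flox females 19 became 329, 65, 145 and 3 to 87 under the same settings. In transgene males 139 became 221 without a filter, 45 without the lowest Myh7 libraries, 27 on the 6 libraries alone, 328 with DESeq2 and 68 to 151 with a library left out. In flox males 452 became 769 with Myh7, 917 on 6 libraries, 871 with DESeq2 and 143 to 644. Between male genotypes after tamoxifen 817 became 492 with Myh7, 536 without the lowest Myh7 libraries, 1312 with DESeq2 and 280 to 997. After vehicle 148 became 327 without a filter, 61 without the lowest Myh7 libraries, 601 with DESeq2 and 44 to 204. Over both treatments 1638 became 779 with Myh7, 957 without the lowest Myh7 libraries and 970 to 2121. Over the strata 1472 became 486 in females and 683 in males. For the transgene minus flox response 2 became 6 without a filter, 0 in females, 26 with DESeq2 and 1 to 6. For the female minus male response 118 became 184 with Myh7, 312 with DESeq2 and 82 to 209.

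Of the 35 genes, the 1 called in transgene females became 3 without a filter, 0 with Myh7, 2 with DESeq2 and 0 to 2 with a library left out. The 3 called between male genotypes after tamoxifen became 0 with Myh7, 1 without the lowest Myh7 libraries and 0 to 4. The 0 after vehicle became 2 without a filter, 1 on 6 libraries, 2 with DESeq2 and 0 to 1. The 2 over the strata became 1 with RLE, 4 with Myh7, 1 without the lowest Myh7 libraries, 0 in males, 4 with DESeq2 and 1 to 4. The 3 over both treatments became 5 with RLE, 1 with Myh7, 8 with DESeq2 and 2 to 7. The 0 of the female minus male response became 0 to 1. The log2 ratio of Dnm2 over Dnm1 ranged over -0.44 to -0.33 and that of Epn1 over Epn2 over -0.16 to -0.10 with a library left out, where Epn1 over Epn2 passed in 2 of 24. The cause of these shifts was not tested. The setting without the lowest Myh7 libraries was chosen after seeing the data. Flox females alone share replicate numbers across groups in the labels: with a replicate block 15 genes and 0 of the 35 were called, and same-numbered libraries correlated at -0.17, 0.0033 and -0.11 across genes, so the numbers were not taken as pairs. Low counts limit genes such as Prkcz (21 to 97 per library) and Lnx1 (36 to 205).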
